A study of Mus musculus with 13 samples.

Results

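Transcripts of 40 genes that carry a cell through mitosis, from the kinases and cyclins that start it to the proteins that cut the daughter cells apart, were followed across 4 ages in mouse brain cells sorted on Pdgfra. The 40 genes were taken by symbol from a list of mitosis and kinetochore genes, and all 40 were found among the 37785 genes of the count files. They are coding genes on 16 chromosomes, and all 40 passed the filter on low counts that left 21170 genes to test. The samples were brain cells of wild-type C57BL/6 mice enriched with magnetic microbeads against Pdgfra, the receptor used to collect oligodendrocyte precursor cells (OPCs, the dividing glial cells that give rise to myelin-forming oligodendrocytes). There were 3 libraries from embryonic day 16 (E16), 3 from postnatal day 12 (P12), 3 from postnatal day 80 (P80) and 4 from postnatal day 310 (P310). Myelin was removed with a second kind of beads from the P80 and P310 cells but not from the younger ones, and the labels name no transgene or treatment. P12 replicates 2 and 3 differed from each other far less than any other pair of one age (chi-square over its degrees of freedom 3.88, against 30.9 to 210.1 in the other 14 pairs), so they were summed and counted as 1 sample, P12 replicate 2-3. This left 3, 2, 3 and 4 samples at the 4 ages.

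In a cell that enters mitosis, Cdk1 bound to cyclin A or cyclin B phosphorylates the proteins that condense chromosomes and build the spindle. Kinetochores, assembled on centromeres marked by the histone variant CENP-A, attach chromosomes to microtubules, and the spindle checkpoint blocks the anaphase-promoting complex (APC/C) until every chromosome is attached. Many of these genes are transcribed mainly in G2 and M phase, when the factors B-Myb and Foxm1 act on them. OPCs are the main dividing cells of the adult brain outside the neurogenic niches, and their cell cycle is known to lengthen with age.

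Promoters of these genes are known for a shared layout, a cell cycle homology region (CHR) near the start site with CCAAT boxes bound by NF-Y upstream of it. The promoters of 5 of the mitotic genes with a CHR match are printed here, by a rule given with the processing. Whether the motifs bear on the changes with age was not tested. They come from RefSeq on GRCm38.p6, run 5′ to 3′ on the gene's own strand, and hold 250 bases before and 50 bases after the start site. Capitals mark the matches to TTTGAA or TTCGAA (the CHR letters) and to CCAAT, each sought on both strands, so that TTCAAA and ATTGG count too.
Cdk1 (chr10:69352863-69353162, minus strand): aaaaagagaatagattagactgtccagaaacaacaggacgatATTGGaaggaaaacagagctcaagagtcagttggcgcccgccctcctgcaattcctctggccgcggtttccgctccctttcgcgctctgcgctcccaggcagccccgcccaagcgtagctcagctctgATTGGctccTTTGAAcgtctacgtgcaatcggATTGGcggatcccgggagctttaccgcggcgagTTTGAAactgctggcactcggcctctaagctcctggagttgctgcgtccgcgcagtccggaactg
Ccnb2 (chr9:70421505-70421804, minus strand): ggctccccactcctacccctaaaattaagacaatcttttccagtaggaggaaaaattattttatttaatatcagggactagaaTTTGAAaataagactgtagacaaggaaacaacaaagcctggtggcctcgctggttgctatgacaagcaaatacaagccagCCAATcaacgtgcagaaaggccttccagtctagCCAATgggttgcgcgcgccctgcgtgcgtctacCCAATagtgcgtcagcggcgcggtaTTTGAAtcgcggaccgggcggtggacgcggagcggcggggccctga
Plk1 (chr7:122159185-122159484, plus strand): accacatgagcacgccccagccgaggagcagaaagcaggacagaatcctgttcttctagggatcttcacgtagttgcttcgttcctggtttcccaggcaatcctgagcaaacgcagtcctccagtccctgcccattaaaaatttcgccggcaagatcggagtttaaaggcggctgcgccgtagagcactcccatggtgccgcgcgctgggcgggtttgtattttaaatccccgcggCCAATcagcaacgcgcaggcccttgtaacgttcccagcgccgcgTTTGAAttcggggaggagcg
Cdc20 (chr4:118437294-118437593, minus strand): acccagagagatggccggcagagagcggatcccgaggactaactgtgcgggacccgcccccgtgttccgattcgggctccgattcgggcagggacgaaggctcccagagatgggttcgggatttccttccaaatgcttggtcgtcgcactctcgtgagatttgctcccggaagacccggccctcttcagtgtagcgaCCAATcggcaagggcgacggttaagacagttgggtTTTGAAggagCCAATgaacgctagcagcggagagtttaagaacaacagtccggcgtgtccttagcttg
Bub1 (chr2:127831810-127832109, minus strand): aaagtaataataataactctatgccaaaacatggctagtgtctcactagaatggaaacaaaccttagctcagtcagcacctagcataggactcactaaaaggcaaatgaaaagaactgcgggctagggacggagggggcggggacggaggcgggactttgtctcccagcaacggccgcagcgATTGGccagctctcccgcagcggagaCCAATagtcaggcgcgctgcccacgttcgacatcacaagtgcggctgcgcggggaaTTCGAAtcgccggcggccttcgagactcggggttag

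In the Bub1 promoter a pair of CCAAT matches on opposite strands lay upstream of a TTCGAA match that begins 15 bases after the start site. Cdk1 held 3 CCAAT matches and 2 TTTGAA matches, and Ccnb2 3 CCAAT matches with 2 TTTGAA matches. Of the 40 genes, 34 had a promoter in the RefSeq table, and the others were Foxm1, Tpx2, Kif20a, Incenp, Ccna2 and Aurkb. TTTGAA or TTCGAA lay in 26 of the 34 (76.5%), compared with 21.7% of the 27025 genes with a promoter of the same length. CCAAT lay in 25 of the 34 (73.5%) against 41.1% of all genes, and 18 of the 34 (52.9%) held at least 2 CCAAT matches against 13.3%. Both motifs together lay in 22 of the 34 (64.7%) and in 9.65% of all genes. In a window from 50 bases before to 45 bases after the start site, chosen after the positions were seen, 24 of the 34 (70.6%) held a CHR match, against 6.12% of all genes. The 8 genes with no CHR match anywhere in the whole window of 250 bases before to 50 after the start site were Ccnb1, Melk, Mad2l1, Cenpe, Nuf2, Birc5, Nusap1 and Nek2. Genes of DNA replication, which are transcribed earlier in the cycle, held a CHR match in 5 of 20 promoters (25.0%), as did 4 of 16 APC/C genes (25.0%). Lists closer in role held it more often than all genes, with 13 of 18 other spindle and cytokinesis genes (72.2%), 8 of 14 other mitotic regulators (57.1%), 10 of 18 condensin and cohesin genes (55.6%) and 14 of 28 other kinetochore genes. Near the start site the shares of these 4 lists were 55.6%, 50%, 44.4% and 32.1%. Of the 36 windows of these 34 genes, 26 had their first transcribed bases in a GENCODE transcript of the same gene. The start sites of the others rest on RefSeq alone. A match is a run of letters and not a measured binding site, and no binding was measured here.

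**Figure D1:**
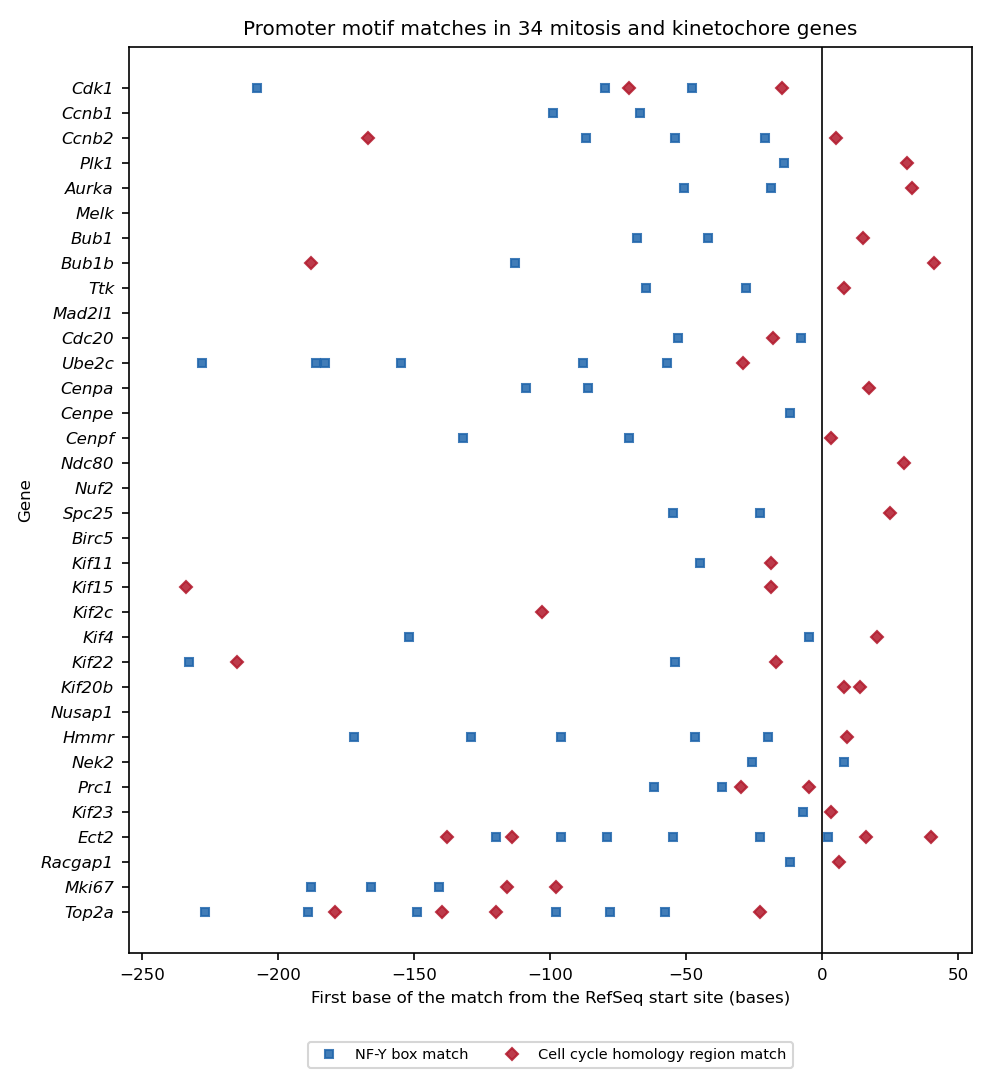
Position of each match to the CHR letters (red diamonds) and to the NF-Y box (blue squares) in the RefSeq promoters of 34 mitosis and kinetochore genes, in bases from the start site at 0. CHR matches gather near the start site. In 24 of the 34 genes a match lies within 50 bases before to 45 bases after it, a window chosen after the positions were seen.

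Library totals ran from 8669521 to 25810455 counts, and levels are given as TMM-scaled CPM, the counts of a gene relative to its library's total. The 10 OPC markers summed to 347 to 405 CPM at E16, 519 and 581 at P12, 213 to 280 at P80 and 147 to 277 at P310. Every OPC marker had counts at every age, with Pdgfra at 33.0 ± 6.96, 70.2 ± 33.2, 37.1 ± 18.4 and 30.7 ± 25.8 CPM (mean ± SD, n = 3, 2, 3 and 4). Sox10, which defines the oligodendrocyte lineage, was low at E16 (3.43 ± 1.61 CPM, n = 3) and reached 31.0 ± 20.8 CPM at P12 (n = 2). Markers of other cells moved with age as well. The 10 immature neuron markers summed to 6298 to 7386 CPM at E16 and to 93.4 to 269 CPM at the later ages, with all 10 at 1 CPM or more at E16 and Nhlh1 without a count at P80. Eomes and Neurog2, which mark dividing neuronal progenitors, stood at 207 ± 43.8 and 72.2 ± 3.61 CPM at E16 and at 3.39 ± 2.59 and 0.650 ± 0.0400 CPM at P12. The whole list of 10 radial glia and intermediate progenitor markers that holds them summed to 1567 ± 33.9, 1435 ± 130.1, 1046 ± 110.1 and 1102 ± 276 CPM, and others of its members, such as Vim (567 ± 16.3 CPM at E16 and 899 ± 8.81 at P12) and Nes (305 ± 61.5 and 405 ± 137), had higher means at P12. The 10 endothelial markers summed to 43.3 to 70.0 CPM at E16 and to 3986 to 7556 CPM at the later ages. Microglia markers summed to 122 ± 20.6 CPM at E16 and 1020 ± 36.9 at P12, and astrocyte markers to 341 ± 36.3 and 3150 ± 344 CPM. The mitochondrial share of counts, a sign of RNA and cell quality, went up with age as the mitosis genes went down, from 1.52% to 3.54% at E16 to 4.44% to 10.8% at P12, 12.8% to 23.5% at P80 and 18.3% to 34.4% at P310, with P310 replicate 1 the highest. P12 replicate 1 differed from P12 replicate 2-3 in its myelin markers (8235 against 428 CPM) and ependymal markers (202 against 31.7 CPM), and it was the higher of the P12 samples for 35 of the 40 genes. P310 replicate 2 stood apart by a sum of 67510 CPM for the myelin markers, against 442 to 917 CPM in the other P310 samples. The part of these cells and of the mitochondrial share in the changes below was not tested. In bulk samples, fewer dividing cells and less RNA of a gene per cell cannot be told apart.

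**Figure D2:**
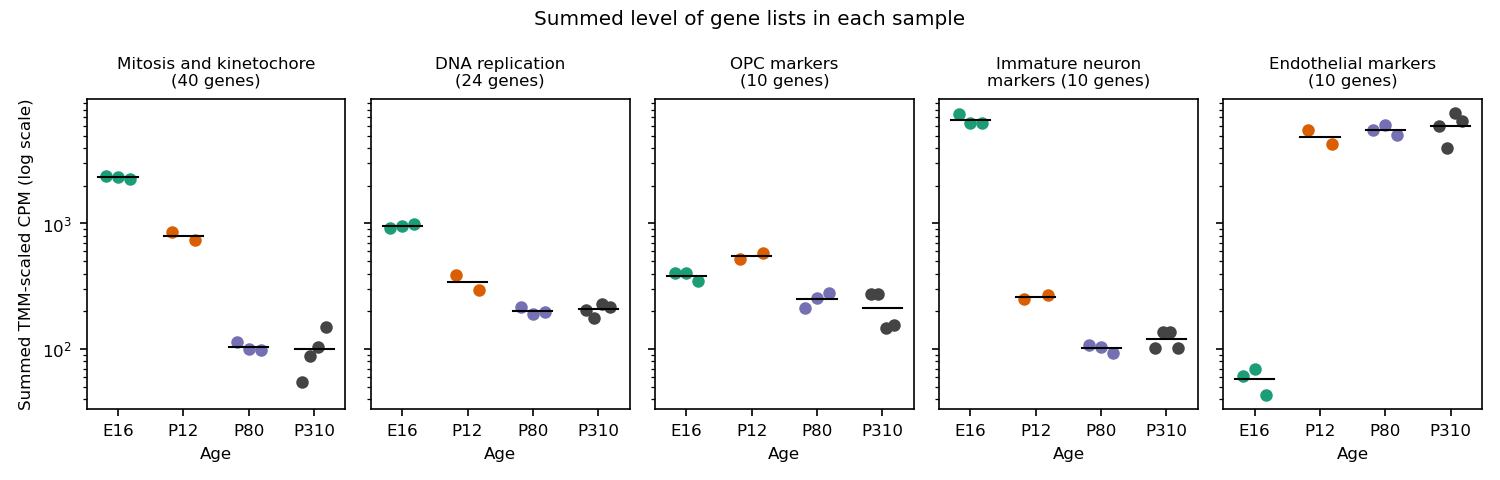
Summed TMM-scaled CPM, on a log axis, of 5 gene lists in each of the 12 samples, with points for samples and bars for the mean of an age. The 40 mitosis and kinetochore genes summed to 2259 to 2405 CPM at E16 and to 55 to 152 CPM at P310, and the immature neuron markers were high and the endothelial markers low at E16.

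The mitosis genes were high in the embryonic samples, intermediate at P12 and low in the adult. Their sum was 2405, 2324 and 2259 CPM in the 3 E16 samples, 861 and 735 CPM in the P12 samples, 115, 101 and 99.4 CPM at P80, and 55, 89.0, 104 and 152 CPM at P310. No sample of one age overlapped the range of another except between P80 and P310. Over the 40 genes the mean at P12 was 19.8% to 58.6% of the mean at E16, with a median of 32.8%. In the 7 adult samples the mean was 0% to 21.5% of the E16 mean, with a median of 3.26%. All 40 genes averaged at least 5 CPM at E16, 37 did so at P12, 6 at P80 and 5 at P310. Relative to the summed OPC markers, the mitosis genes amounted to 5.76 to 6.50 times that sum at E16, 1.66 and 1.27 times at P12, 0.355 to 0.537 times at P80 and 0.199 to 0.981 times at P310. These ratios depend strongly on Ptprz1, the largest part of the OPC sum at E16, and are not a measure of division per OPC.

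**Figure D3:**
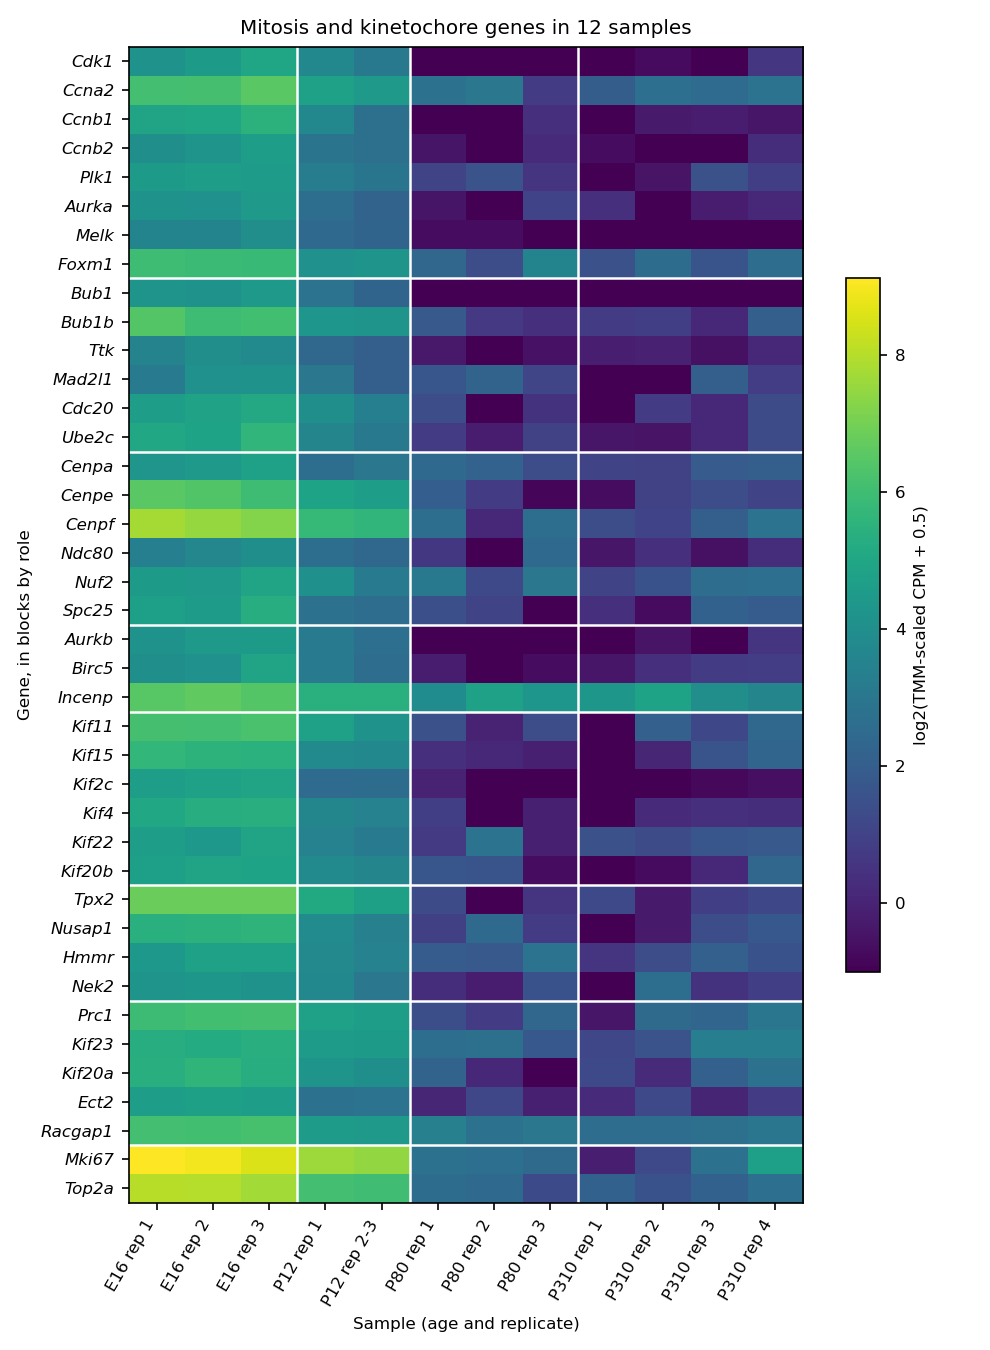
Level of each of the 40 genes in each of the 12 samples, as log2(TMM-scaled CPM + 0.5), with genes in blocks by role and white lines between roles and ages. The E16 samples are the brightest for all 40 genes, Mki67 is highest at E16 and P12, and Incenp is the brightest gene in the adult samples other than P310 replicate 4.

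Between E16 and P12, every P12 sample lay below every E16 sample in 40 of the 40 genes, a separation found in 30.9% of all genes tested. A gene is called here when the adjusted p of edgeR's quasi-likelihood F test, with Benjamini-Hochberg adjustment over all 21170 genes, is below 0.05. By that rule 11 of the 40 genes were lower at P12 and 0 were higher, against 10.5% of all genes lower and 16.7% higher. The 11 were Ccna2, Foxm1, Bub1, Bub1b, Ube2c, Cenpa, Incenp, Kif2c, Ect2, Racgap1 and Top2a. The median log2 change of the 40 genes was -1.61, compared with 0.09 for all genes. The number of calls was not stable when samples were left out or the method was changed. It was 3 without E16 replicate 1, 3 without E16 replicate 2, and 2 without E16 replicate 3, P12 replicate 1 or P12 replicate 2-3, while limma-voom called 39. Racgap1 and Top2a were called in the main analysis and in all 22 alternatives, and all 40 log2 changes lay below 0 in each of them. The number called over all genes moved with the setting too, with 3819 of 21170 lower by limma-voom.

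From P12 to P80, 18 of the 40 genes were lower in the adult and 0 were higher, while 1.02% of all genes were called lower and 0.406% higher. The median log2 change was -3.32, against -0.03 for all genes. Every P80 sample lay below both P12 samples in 38 of the 40 genes, compared with 15.5% of all genes, and the exceptions were the kinetochore gene Ndc80 and the checkpoint gene Mad2l1. Without P12 replicate 1 the count was 6, without both P310 replicates 1 and 2 it was 28, and with only the P12 and P80 samples fitted it was 9. Aurkb, Bub1, Cdk1 and Top2a were called in the main analysis and every alternative. Over all genes, 384 of 20861 were called lower without both P310 replicates 1 and 2. With only the P12 and P80 samples fitted, 138 of 19604 were.

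Over the whole interval from E16 to P80, 39 of the 40 genes were called lower at P80, against 19.2% of all genes, with a median log2 change of -4.87 beside 0.12 for all genes. All 40 had every P80 sample below every E16 sample, as did 30.0% of all genes. The exception to the calls was Mad2l1, with a log2 change of -2.32 ± 1.05 (SE; edgeR adjusted p = 0.0960). Across all 4 ages together the edgeR F test called 39 of the 40 genes and 37.1% of all genes, and Mad2l1 had an adjusted p of 0.0522. P310 compared with P12 gave 22 calls lower and 0 higher, with 1.79% of all genes called lower, and the groups were apart in 40 of the 40 genes against 11.6% of all genes. The median log2 change was -3.15, compared with 0.03 for all genes. Without P12 replicate 1 that count was 8. The comparisons that use the same P12 or E16 samples are not independent of each other.

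**Figure D4:**
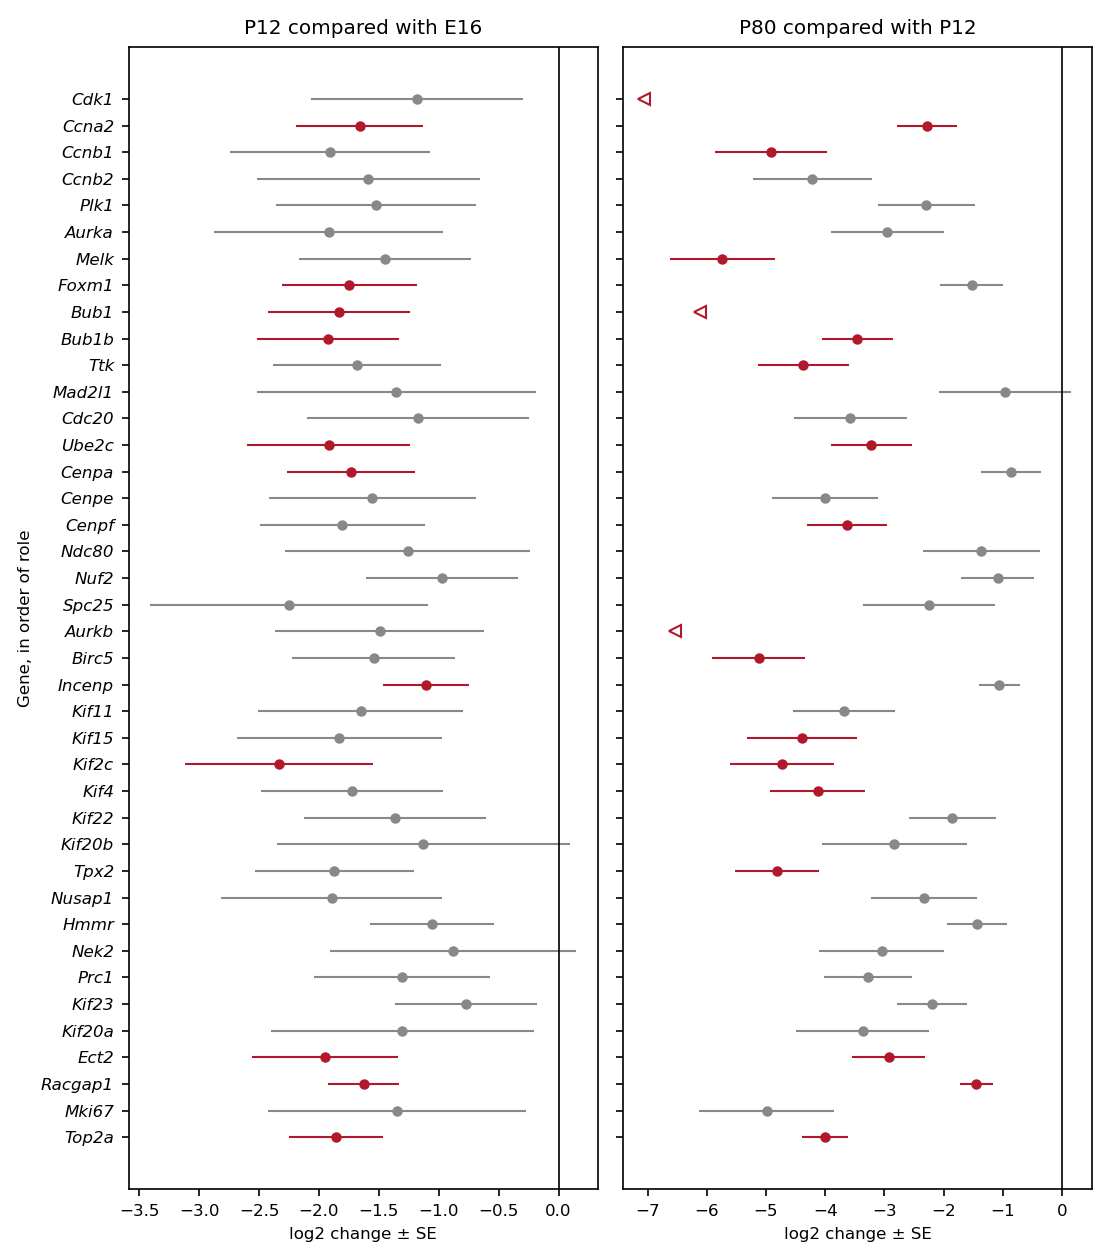
Log2 change ± SE of the 40 genes from E16 to P12 (left) and from P12 to P80 (right), with genes called at an adjusted p below 0.05 in red and the others in grey. Open triangles show Cdk1, Bub1 and Aurkb, which had no count at P80 and are drawn at the bound set by 3 counts over the group, and all 40 changes lie below 0 in both panels.

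Mki67, the antigen Ki-67 that coats mitotic chromosomes and is the usual marker of cycling cells, gave the highest level per kilobase at E16 and P12 (47.3 and 18.6 CPM per kilobase). Its level was 556, 488 and 382 CPM in the E16 samples, 197 and 177 CPM at P12, and 6.53, 6.05 and 5.08 CPM at P80. The E16, P12 and P80 groups were separate. At P310 its level was 0.396, 1.87, 6.42 and 25.8 CPM, so that the oldest samples spanned the P80 range on both sides. The log2 change was -1.35 ± 1.08 from E16 to P12 (edgeR adjusted p = 0.403), -4.99 ± 1.14 from P12 to P80 (edgeR adjusted p = 0.0835), and -6.34 ± 1.17 from E16 to P80 (edgeR adjusted p = 0.00194). Only the last of these passed the threshold. Mki67 made up 16.9% to 24.1% of the summed mitosis genes at E16 and P12, 5.11% to 5.98% at P80 and 0.720% to 17.0% at P310. Top2a, the topoisomerase that untangles sister chromatids, stood at 262, 252 and 210 CPM at E16, 68.6 and 64.8 CPM at P12, 5.51, 5.06 and 1.95 CPM at P80, and 3.96, 2.42, 3.92 and 6.04 CPM at P310. The E16, P12 and adult samples fell into separate ranges, and P80 and P310 overlapped. Top2a fell by 1.86 ± 0.39 on the log2 scale from E16 to P12 (edgeR adjusted p = 0.00241) and by 4.00 ± 0.39 from P12 to P80 (edgeR adjusted p = 0.000189).

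Among the 8 genes that start mitosis, the kinase Cdk1 and its cyclin partners were far lower in the adult than at E16. All 8 genes were called lower at P80 than at E16, against 19.2% of all genes. Cdk1 stood at 17.3, 22.6 and 31.1 CPM at E16 and at 12.9 and 8.02 CPM at P12. It had no count in any P80 sample, which makes it at least 133-fold lower than at P12 when 3 counts over the group are allowed (edgeR adjusted p = 0.00643), and at least 302.0-fold lower than at E16. At P310 it was at 0, 0.110, 0 and 1.02 CPM. From E16 to P12 its log2 change was -1.18 ± 0.88 (edgeR adjusted p = 0.361). Ccnb1, which encodes cyclin B1, had 29.6, 31.6 and 44.5 CPM at E16, 12.6 and 6.19 CPM at P12, 0, 0 and 0.835 CPM at P80, and 0, 0.330, 0.357 and 0.255 CPM at P310. The adult samples all lay under 1 CPM, and Ccnb1 fell by 4.92 ± 0.94 on the log2 scale from P12 to P80 (edgeR adjusted p = 0.0166). Ccnb2, the other B cyclin, averaged 19.6 ± 4.13, 6.53 ± 0.445, 0.316 ± 0.352 and 0.224 ± 0.366 CPM at the 4 ages. Ccna2, cyclin A2, kept more of its level, with 68.5, 70.0 and 92 CPM at E16, 27.4 and 21.3 CPM at P12, 6.34, 7.53 and 1.25 CPM at P80, and 3.43, 6.05, 5.35 and 6.80 CPM at P310. Ccna2 overlaps Exosc9 in gene span, and reads can be shared where exons overlap, since counting took no account of strand.

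Plk1, the kinase that drives centrosome maturation and mitotic entry, had 22.5, 24 and 23.2 CPM at E16, 8.96 and 7.23 CPM at P12, 1.58, 2.47 and 0.974 CPM at P80, and 0, 0.220, 2.32 and 1.36 CPM at P310. Its E16 samples were tight and far above both P12 samples, yet neither step passed alone. The log2 change was -1.52 ± 0.84 from E16 to P12 (edgeR adjusted p = 0.200) and -2.29 ± 0.82 from P12 to P80 (edgeR adjusted p = 0.297), and -3.81 ± 0.81 over both (edgeR adjusted p = 0.00174). Foxm1, the transcription factor that drives many genes of this set, had 62.3, 59.9 and 55.7 CPM at E16, 16.9 and 18.4 CPM at P12, 4.63, 2.1 and 11.5 CPM at P80, and 2.38, 5.50, 2.59 and 5.61 CPM at P310. It fell by 1.75 ± 0.56 on the log2 scale from E16 to P12 (edgeR adjusted p = 0.0322), while the change from P12 to P80 was -1.53 ± 0.53 (edgeR adjusted p = 0.277). Foxm1 overlaps Tex52 and Gm44596 in gene span, and reads can be shared only where exons overlap. Aurka, the centrosomal Aurora kinase, averaged 18.6 ± 2.53 CPM at E16, 4.92 ± 1.14 CPM at P12, 0.595 ± 0.820 CPM at P80 and 0.436 ± 0.341 CPM at P310. Melk, a mitotic kinase of the AMPK family, had 11.4, 11.5 and 15.3 CPM at E16, 4.98 and 4.35 CPM at P12, and 0.127, 0.124 and 0 CPM at P80. It had no count at P310, at least 61.6-fold below P12 (edgeR adjusted p = 0.000868).

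The 6 genes of the spindle checkpoint and the anaphase trigger gave 3 lower calls from E16 to P12 and 4 from P12 to P80. Over all genes, 10.5% and 1.02% were called lower at these steps. Bub1, a checkpoint kinase at the kinetochore, had 18.4, 17.9 and 21.9 CPM at E16 and 6.66 and 4.26 CPM at P12. No adult sample held a Bub1 count, in 7 of 7 samples, so it was at least 69.6-fold lower at P80 than at P12 (edgeR adjusted p = 0.00253) and at least 72.2-fold lower at P310 than at P12 (edgeR adjusted p = 0.000700). Bub1b, which encodes the checkpoint protein BubR1, had 84.5, 63.2 and 65.6 CPM at E16, 19.3 and 18.2 CPM at P12, 3.04, 1.11 and 0.835 CPM at P80, and 1.19, 1.32, 0.624 and 3.66 CPM at P310. Bub1b fell by 1.92 ± 0.59 on the log2 scale from E16 to P12 (edgeR adjusted p = 0.0262) and by 3.46 ± 0.59 from P12 to P80 (edgeR adjusted p = 0.00831). Ttk, the kinase Mps1, averaged 13.5 ± 2.15, 4.21 ± 0.823, 0.175 ± 0.161 and 0.402 ± 0.172 CPM across the 4 ages.

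Mad2l1, the Mad2 protein that inhibits Cdc20, had the lowest level per kilobase of the 40 genes at E16 and P12. That rank depends on the length used, all annotated exons of a gene together, which is 8390 bases for Mad2l1. By mean CPM the lowest genes were Ndc80 at E16 (12.6 CPM) and Ttk at P12 (4.21 CPM). Mad2l1 stood at 8.57, 16.7 and 17.7 CPM at E16, 7.59 and 3.67 CPM at P12, 2.79, 4.20 and 1.67 CPM at P80, and 0, 0, 3.66 and 1.28 CPM at P310. One P80 sample exceeded the lower P12 sample, and the log2 change of that step was -0.97 ± 1.12 (edgeR adjusted p = 0.902). Cdc20, the activator of the APC/C, averaged 28.7 ± 4.97, 12.8 ± 4.19, 0.998 ± 1.05 and 0.968 ± 0.869 CPM. Ube2c, the ubiquitin-conjugating enzyme of the APC/C, averaged 37.2 ± 11, 9.88 ± 2.66, 1.01 ± 0.570 and 0.766 ± 0.813 CPM, and both of its steps down to P80 were called. Cdc20 overlaps Elovl1 and Ube2c overlaps Tnnc2.

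The 6 kinetochore and centromere genes differed in how much of their E16 level remained in the adult. All 6 were called lower at P80 than at E16, against 19.2% of all genes. Cenpf, a large protein of the outer kinetochore and a G2 marker, had 215, 183 and 152 CPM at E16, 54.8 and 50.1 CPM at P12, 5.83, 0.618 and 5.84 CPM at P80, and 2.11, 1.54, 3.66 and 6.72 CPM at P310. Its log2 change was -1.80 ± 0.69 from E16 to P12 (edgeR adjusted p = 0.0753), and it fell by 3.63 ± 0.68 from P12 to P80 (edgeR adjusted p = 0.0233). Cenpe, the kinetochore motor that carries chromosomes to the spindle equator, averaged 79.1 ± 15.8, 26.9 ± 2.57, 1.64 ± 1.81 and 1.33 ± 0.853 CPM. Cenpa, the centromeric histone that stays on centromeres through the whole cycle, had 19.1, 21.1 and 27.2 CPM at E16, 5.85 and 7.61 CPM at P12, 4.94, 4.08 and 2.16 CPM at P80, and 1.58, 1.43, 3.21 and 3.66 CPM at P310. It fell by 1.74 ± 0.54 on the log2 scale from E16 to P12 (edgeR adjusted p = 0.0258), and from P12 to P80 its change was -0.86 ± 0.51 (edgeR adjusted p = 0.670).

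The Ndc80 complex, the microtubule anchor of the kinetochore, was represented by Ndc80, Nuf2 and Spc25. Nuf2 stood at 22.2, 21.7 and 29.7 CPM at E16, 16.3 and 8.78 CPM at P12, 8.05, 1.85 and 7.58 CPM at P80, and 1.58, 2.42, 5.62 and 6.04 CPM at P310. Its highest P80 sample lay close under its lower P12 sample, and its fall from E16 to P80, by 2.06 ± 0.58 on the log2 scale, was the smallest of the 40 genes (edgeR adjusted p = 0.0104). Spc25 had 26.1, 22.7 and 38.5 CPM at E16, 6.53 and 5.70 CPM at P12, 2.28, 1.61 and 0 CPM at P80, and 0.792, 0.110, 3.92 and 3.32 CPM at P310. Its groups were apart from E16 to P12 to the adult, with a log2 change from E16 to P12 of -2.25 ± 1.16 (edgeR adjusted p = 0.179). Ndc80 averaged 12.6 ± 3.03, 5.28 ± 0.717, 2.01 ± 2.60 and 0.494 ± 0.317 CPM, and P80 replicate 3, at 4.94 CPM, lay inside the P12 range.

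The 3 genes of the chromosomal passenger complex, which corrects faulty attachments and later guides cytokinesis, differed from each other in the adult. Aurkb, its kinase, had 17.9, 21.2 and 22.4 CPM at E16, 8.58 and 6.00 CPM at P12, and no count at P80, at least 93.0-fold below P12 (edgeR adjusted p = 0.00594) and at least 261-fold below E16. At P310 it was at 0, 0.220, 0 and 0.935 CPM. Birc5, the survivin subunit, had 16.1, 16.8 and 29.5 CPM at E16, 8.65 and 5.64 CPM at P12, 0.380, 0 and 0.139 CPM at P80, and 0.264, 0.770, 1.25 and 1.28 CPM at P310. It fell by 5.13 ± 0.79 on the log2 scale from P12 to P80 (edgeR adjusted p = 0.00413). Incenp, the scaffold that holds the kinase on the centromere, had 89.2, 100.6 and 85.5 CPM at E16, 42.4 and 42.9 CPM at P12, 14.5, 27.5 and 19.5 CPM at P80, and 20.1, 29.0, 15.5 and 11.6 CPM at P310. All adult samples lay under both P12 samples. Incenp fell by 1.11 ± 0.36 from E16 to P12 (edgeR adjusted p = 0.0342), and from P12 to P80 its log2 change was -1.06 ± 0.35 (edgeR adjusted p = 0.227). It kept 21.5% of its E16 mean in the adult and had the highest level per kilobase of the 40 genes at P80 and P310 (6.38 and 5.92 CPM per kilobase).

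**Figure D5:**
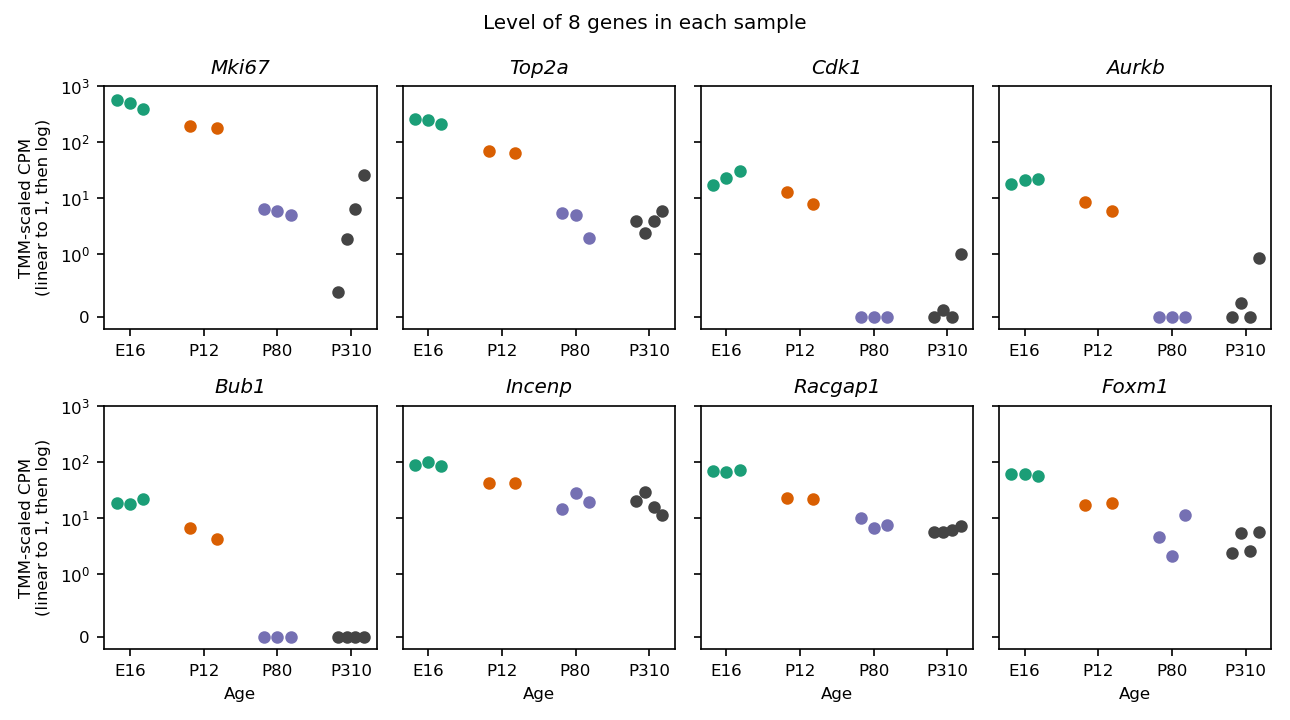
TMM-scaled CPM of 8 genes in each of the 12 samples by age, on an axis that is linear to 1 and logarithmic above. Cdk1, Aurkb and Bub1 have no count at P80, Incenp and Racgap1 keep levels above 5 CPM in every adult sample, and Mki67 spreads from 0.396 to 25.8 CPM at P310.

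All 6 spindle motors were called lower at P80 than at E16, against 19.2% of all genes. Kif11, the motor that pushes the spindle poles apart, averaged 70.3 ± 2.51, 22.4 ± 7.34, 1.67 ± 1.02 and 2.58 ± 2.11 CPM, and Kif15, which can share that task, 47.0 ± 3.90, 13.2 ± 0.472, 0.620 ± 0.203 and 1.89 ± 2.02 CPM. Kif2c, the kinesin MCAK that dismantles microtubules at centromeres, had 25.0, 27.0 and 30.0 CPM at E16 and 5.29 and 5.51 CPM at P12. It fell by 2.34 ± 0.78 on the log2 scale from E16 to P12 (edgeR adjusted p = 0.0385), the steepest change of the 40 genes in that interval. Among the adult samples, P80 replicate 1 had 0.507 CPM of Kif2c, P310 replicates 3 and 4 had 0.0892 and 0.170 CPM, and the other 4 had no count. Kif4, a chromosome-arm motor, averaged 37.2 ± 3.75, 11.3 ± 1.02, 0.583 ± 0.680 and 0.557 ± 0.376 CPM, and Kif20b, a motor of cytokinesis, 28.0 ± 1.96, 12.8 ± 1.49, 1.82 ± 1.46 and 1.31 ± 2.15 CPM. Kif22, which moves chromosome arms, averaged 24.9 ± 4.50, 9.65 ± 1.48, 2.78 ± 3.49 and 2.55 ± 0.470 CPM, with P80 replicate 2 at 6.79 CPM and the other P80 samples at 1.14 and 0.417 CPM. Kif4 overlaps Pdzd11 and Kif22 overlaps Gm31749.

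Of the 4 spindle assembly genes, Tpx2, which activates Aurora A on the spindle, had the highest mean CPM at E16 and P12 and the lowest in the adult. It stood at 112, 111 and 110.1 CPM at E16, 34.5 and 26.3 CPM at P12, 1.96, 0 and 0.974 CPM at P80, and 1.85, 0.330, 1.34 and 1.79 CPM at P310. It fell by 4.82 ± 0.71 on the log2 scale from P12 to P80 (edgeR adjusted p = 0.00483). Nusap1, a microtubule stabiliser near chromosomes, averaged 45.2 ± 2.37, 12.2 ± 3.01, 2.51 ± 2.11 and 1.36 ± 1.43 CPM. Hmmr, a spindle protein and hyaluronan receptor, averaged 24.8 ± 3.63, 11.9 ± 1.71, 4.37 ± 2.0 and 2.31 ± 1.16 CPM and kept 12.9% of its E16 mean in the adult. Nek2, a kinase that separates centrosomes, had 18.5, 19.8 and 17.8 CPM at E16, 12.8 and 7.63 CPM at P12, 0.760, 0.371 and 2.43 CPM at P80, and 0, 5.83, 0.892 and 1.36 CPM at P310. Its adult samples all lay below P12, with a log2 change from E16 to P12 of -0.88 ± 1.03 (edgeR adjusted p = 0.577). Nusap1 overlaps Oip5, itself a centromere gene, and Nek2 overlaps Gm38037.

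Of the 5 genes of the spindle midzone and cytokinesis, 2 were called lower from E16 to P12 and 2 from P12 to P80. They were Racgap1 and Ect2 both times, and over all genes 10.5% and 1.02% were called lower. Racgap1, which forms the centralspindlin complex with Kif23, had 68.3, 65.2 and 72.2 CPM at E16, 22.7 and 21.8 CPM at P12, 10.2, 6.55 and 7.58 CPM at P80, and 5.68, 5.61, 6.15 and 7.31 CPM at P310. It fell by 1.63 ± 0.30 on the log2 scale from E16 to P12 (edgeR adjusted p = 0.000775), by 1.45 ± 0.28 from P12 to P80 (edgeR adjusted p = 0.0165), and by 3.07 ± 0.27 over both (edgeR adjusted p = 5.65e-07). Its partner Kif23 stood at 38.7, 36.6 and 40.4 CPM at E16, 22.8 and 22.5 CPM at P12, 5.77, 6.18 and 2.92 CPM at P80, and 1.72, 2.53, 9.54 and 9.44 CPM at P310. The Kif23 change from E16 to P12, -0.77 ± 0.59, was the smallest of the 40 genes (edgeR adjusted p = 0.371). Ect2, the exchange factor that activates RhoA at the cleavage furrow, averaged 25.4 ± 0.957, 6.55 ± 0.297, 0.906 ± 0.717 and 1.06 ± 0.608 CPM, and both of its steps down to P80 were called. Prc1, which bundles midzone microtubules, averaged 65.1 ± 4.90, 26.3 ± 1.70, 2.66 ± 1.69 and 4.30 ± 2.95 CPM. Kif20a, a midzone motor, averaged 42.6 ± 5.40, 17.3 ± 1.88, 1.60 ± 2.26 and 3.22 ± 2.60 CPM. Kif20a overlaps the APC/C gene Cdc23 in gene span, and Prc1 overlaps Rccd1 and 6330403N20Rik. Reads can be shared only where exons overlap.

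Between P80 and P310 no change in the mitosis genes was called. edgeR called 0 of the 40 genes and 0% of all genes in either direction, with 5 of the 40 genes and 1162 of all genes at an unadjusted p below 0.05, while DESeq2 called 14 genes lower and 14 higher, 0 of them among the 40, and limma-voom called 0 of the 40. The groups overlapped in all 40 genes, and only 2.59% of all genes had every P310 sample below every P80 sample. The median log2 change was -0.10, and between 13 and 26 of the 40 changes lay below 0 in the settings that tested all 40. With only the P80 and P310 samples fitted, 28 of the 40 genes passed the filter, and 16 of those changes lay below 0. The other genes entered the main test through their E16 and P12 counts. With so few adult counts, the lack of a call says little about them. With no filter on low counts, Aurkb and Cdk1 were called higher at P310 (edgeR adjusted p = 0.0173 and 0.0123), as were 298 of 29980 genes. Each had 13 counts over the 4 P310 samples and none at P80. P310 replicate 4 alone held 11 of the Aurkb counts and 12 of the Cdk1 counts. The P310 samples differed widely among themselves. P310 replicate 4 was the highest of its group for 24 of the 40 genes and P310 replicate 1 the lowest for 18. P310 replicate 1, the library with the most mitochondrial counts, held 417 counts of the 40 genes in all and none for 15 of them, and P310 replicate 4 held 1784 counts and none for 2 of them. The OPC markers summed to 277 CPM in P310 replicate 1 and 155 CPM in P310 replicate 4, and the part of these differences in the spread was not tested.

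Further genes of mitosis were described by lists of genes outside the 40. Of 33 other kinetochore subunits, 4 were lower at P12 than at E16, 2 lower at P80 than at P12, and 19 lower at P80 than at E16, with 0 higher and median log2 changes of -1.02, -0.76 and -1.89. Over all genes the shares called lower in these comparisons were 10.5%, 1.02% and 19.2%, and the 4 of 33 at the first step lie near that background. Knl1, the scaffold that recruits Bub1, averaged 35.9 ± 5.02, 13.4 ± 3.49, 1.13 ± 0.790 and 1.03 ± 0.709 CPM. It fell by 3.50 ± 0.63 on the log2 scale from P12 to P80 (edgeR adjusted p = 0.0104). Among 21 other spindle and cytokinesis genes, 4, 8 and 16 were lower in the same 3 comparisons, with 0 higher. Aspm, a spindle pole protein needed for brain growth, averaged 79.0 ± 13.2, 23.4 ± 3.36, 1.11 ± 0.897 and 0.129 ± 0.202 CPM and fell by 4.49 ± 0.63 on the log2 scale from P12 to P80 (edgeR adjusted p = 0.00253). Among 21 other mitotic regulators, 3, 4 and 12 were lower with 0 higher, the first again near the background of 10.5%. Cdca8, the borealin subunit of the passenger complex, averaged 29.5 ± 4.02, 9.61 ± 0.307, 1.40 ± 1.09 and 1.49 ± 0.710 CPM.

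The APC/C and the condensin and cohesin genes, some of which also serve cells that do not divide, were set beside these lists. Of 17 APC/C subunits and partners, 6 were lower at P12 than at E16, 0 lower at P80 than at P12 and 11 lower at P80 than at E16, with 0 higher and a median log2 change of -1.20 over the whole interval. Ube2s, which extends ubiquitin chains for the APC/C, averaged 84.3 ± 18.1, 21.8 ± 3.26, 18.7 ± 2.13 and 19.4 ± 5.77 CPM. Of 23 condensin and cohesin genes, 6, 5 and 17 were lower in the same 3 comparisons. Over all genes the shares called lower in these comparisons were 10.5%, 1.02% and 19.2%, and the 0 of 17 APC/C genes at the second step lies near that background. Ncapd2, a condensin subunit, averaged 183 ± 10.6, 84.1 ± 22.3, 24.7 ± 2.48 and 21.3 ± 5.31 CPM and fell from P12 to P80 by 1.77 ± 0.27 on the log2 scale (edgeR adjusted p = 0.00367). Smc3, a cohesin subunit that also shapes chromatin loops in resting cells, averaged 245 ± 8.71, 126 ± 23.0, 105 ± 11.1 and 99.3 ± 12.7 CPM.

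Pttg1 was the only gene of these lists called higher in any comparison, while others had log2 changes above 0 that were not called. It encodes securin, the inhibitor of separase, and averaged 2.36 ± 0.639 CPM at E16, 6.97 ± 1.67 CPM at P12, 15.9 ± 5.86 CPM at P80 and 11.3 ± 3.37 CPM at P310. It rose by 1.56 ± 0.47 on the log2 scale from E16 to P12 (edgeR adjusted p = 0.0224) and by 2.76 ± 0.45 from E16 to P80 (edgeR adjusted p = 0.000193). Espl1, which encodes separase itself, averaged 23.1 ± 4.04, 9.31 ± 3.40, 1.71 ± 0.750 and 2.89 ± 1.15 CPM and fell by 2.43 ± 0.51 from P12 to P80 (edgeR adjusted p = 0.0264).

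Genes of DNA replication, which act in S phase before mitosis, were set beside the mitosis genes. Their sum was 922, 961 and 996 CPM at E16, 390 and 293 CPM at P12, 216, 192 and 196 CPM at P80, and 205, 178, 231 and 218 CPM at P310. Of 24 replication genes, 9 were lower at P12 than at E16, 0 lower at P80 than at P12 and 19 lower at P80 than at E16, with median log2 changes of -1.28, -0.89 and -2.21. Over all genes the shares called lower were 10.5%, 1.02% and 19.2%, so the 0 of 24 at the second step lies near that background. In the same comparisons the 40 mitosis genes had medians of -1.61, -3.32 and -4.87. The replication sum was thus lower than the mitosis sum in each E16 and P12 sample and higher in each adult sample. Mcm7, a subunit of the replicative helicase, averaged 107 ± 7.87, 22.8 ± 4.31, 10.1 ± 3.55 and 13.1 ± 3.16 CPM, while Rrm2, the ribonucleotide reductase subunit made in S phase, averaged 43.7 ± 3.68, 8.77 ± 0.528, 0.290 ± 0.310 and 0.298 ± 0.595 CPM. The difference between the mitosis and the replication lists was not tested.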

How the data were processed

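Total RNA of Pdgfra-sorted mouse brain cells was sequenced from libraries made with a low-input SMARTer kit (Pico v2), per the labels' protocols. The authors deposited unnormalised counts of each gene from featureCounts 1.5.0-p1 on exons of Ensembl GRCm38 release 92, per the file headers. Reads that overlap several genes or map to several places were counted for each if at least 10 bases overlapped, without regard to strand. Genes whose exons overlap can thus share reads. The overlaps named here are of whole gene spans, and overlap of exons was not checked. Trim Galore and TopHat2 2.1.1 are named in the submitters' processing notes. Ages come from the sample titles; the age field has 81 days for 2 samples called P80, and days 306 to 308 for those called P310. Whether each library came from a separate mouse is not stated per library, so p-values measure the spread between these samples.

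Of 37785 genes, 37715 were named from GENCODE M21. Totals of 8669521 to 25810455 counts set the precision, and a gene without a count in a group is bounded at 3 counts over that group, for counting error only. Libraries of one age were compared by chi-square over genes with 20 or more counts summed over both. Counts were filtered by filterByExpr, scaled by TMM (factors 0.631 to 1.165) and fitted with a mean per age over all 12 samples in edgeR 4.0.16 under R 4.3.3 (robust quasi-likelihood F test, common biological coefficient of variation 0.513, Benjamini-Hochberg adjustment over 21170 genes, threshold 0.05). SE is the size of the log2 change over the square root of F. The procedure was run on simulated data with less spread between samples than these data, so that run does not measure its accuracy here. Alternatives were DESeq2 1.42.0, limma-voom 3.58.1 with quality weights, RLE size factors, other filters, only the ages compared, P12 replicates 2 and 3 apart, a replicate term, removal of mitochondrial, ribosomal and haemoglobin genes, and each sample left out in turn. Leaving out both P310 replicates 1 and 2 was added after seeing the data. Python 3.11.15, numpy 2.4.6, pandas 2.3.3 and matplotlib 3.10.9 made summaries and figures.

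The 40 genes, the other lists and the markers were chosen with earlier results of these data known. Per-sample values are given for Mki67, Top2a, Cdk1, Ccnb1, Plk1, Aurkb, Bub1b, Cenpf, Foxm1 and Birc5 and, in each comparison, for the 3 called genes with the smallest adjusted p, the 2 largest and 2 smallest changes, and any called gene that goes against the others. Those of Ccna2 and Tpx2 were added after their values were seen. The other lists name up to 3 called genes with the smallest adjusted p and any against the list. Promoters are those of Cdk1, Ccnb1, Ccnb2, Plk1, Cdc20, Bub1, Aurka and Cenpa that hold a CHR match, at most 5. No sequence is printed for genes on chromosome 18. Summed lists got no test. The values of some genes of the other lists are not reported here.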

Additional observations from a re-analysis of the deposited data

Results flagged for a closer look

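Cdk1 in P310 replicate 4 stood at 1.02 CPM while the other P310 samples lay between 0 and 0.110 CPM, a gap of that sample from the rest larger than Dixon's 95% limit for 4 samples. Kif20b in P310 replicate 4 stood at 4.51 CPM against 0 to 0.624 CPM in the other P310 samples and passed the same limit. The limit was applied at P310 to 39 groups of 4 values (the summed genes and each gene with a count there), and chance passes about 1 in 20 groups.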

How the results depend on the processing

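In every alternative all 40 log2 changes lay below 0 for P12 against E16, P80 against P12, P80 against E16 and P310 against P12, and none of these results reversed. The median log2 change ranged from -1.73 to -1.47, -3.64 to -3.20, -5.47 to -4.80 and -3.97 to -2.77 in these 4 comparisons, in that order. The number of calls moved as well, and the cause was not tested. Calls over all genes moved with the setting too. For P12 against E16, 2222 of 21170 genes were called lower in the main analysis and 3819 by limma-voom. There were 2480 of 29980 with no filter and 3242 of 19344 with only the ages compared. For P80 against P12 the same settings, in that order, called 215, 327, 618 and 138 genes lower. For P310 against P12 they called 380, 604, 772 and 117. For P12 against E16, 11 genes were called lower, compared with 18 by DESeq2, 17 with P12 replicates 2 and 3 apart, 39 by limma-voom, 23 with no low-count filter, 37 with only the ages compared, 21 without both P310 replicates 1 and 2, and 2 to 16 when single samples were left out. For P80 against P12 the 18 became 30 by limma-voom, 34 with no filter, 9 with only the ages compared, 28 without both P310 replicates 1 and 2, and 6 to 24 with single samples left out. For P310 against P12 the 22 became 34 by limma-voom, 38 with no filter, 8 with only the ages compared, and 8 to 25 with single samples left out. For P310 against P80, 0 became 2 higher with no filter, on counts held almost all by P310 replicate 4. With single samples left out, P80 against E16 gave 37 to 40 calls, all ages together 38 to 40, P310 against P80 0 to 0, and no comparison gave a higher call (0). Replicate numbers in the titles did not pair the samples, as same-numbered samples correlated at -0.09 to 0.21 over 15 pairs, and the replicate block gave 9, 19, 0, 39 and 21 lower calls in the 5 comparisons and 39 over all ages. Among 1232 values of single genes under the 22 alternatives, 1108 kept their call, 72 gained one and 52 lost one. With 2 samples at P12 and few adult counts, smaller changes would not be seen.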
